A study of Mus musculus with 24 samples.

Results

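The genes described here encode the proteasome, its regulators and its assembly factors, measured in mouse back skin epidermis. They are the protein-coding genes of the table whose symbols begin with Psma, Psmb, Psmc, Psmd, Psme, Psmf or Psmg, 49 of 17721 genes, chosen by symbol and not by any measured value. The study profiled epidermis freed with dispase from 24 male C57BL/6 mice 8 weeks old, taken in groups of 4 every 4 h from lights on (ZT0) to ZT20 and kept in 12 h of light and 12 h of dark with free access to chow. In all of them Bmal1, a core activator of the circadian clock, had been knocked out by a Cre recombinase under the keratin 14 promoter, so that the clock was removed in the epidermis and kept in other tissues. These mice are called EpiKO here, and the authors compared them with WT epidermis, sequenced in libraries outside the series. The keratin 14 promoter acts in keratinocytes, and the extract also holds immune cells and melanocytes that do not normally use it.

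The proteasome is the protease that removes proteins marked with ubiquitin. Its barrel-shaped core has outer rings of alpha subunits, which gate the entrance, and inner rings of beta subunits, some of which cut the chain, and a regulatory particle made of a base with ATPases and a lid binds ubiquitin, unfolds the protein and feeds it in. In cells that meet interferon, the catalytic beta subunits are replaced by Psmb8, Psmb9 and Psmb10, and the resulting immunoproteasome makes peptides for class I antigen presentation. Transcription of constitutive subunits is raised by the factor NFE2L1 when proteasome activity falls short.

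The measurements are the authors' fit of a cosine curve with a period of 24 h to each gene in each genotype by dryR, which gives each of 5 rhythm models a weight between 0 and 1. The models are no rhythm, a rhythm in EpiKO only, a rhythm in WT only, the same rhythm in both, and different rhythms. A gene was assigned to the model of largest weight where that weight was at least 0.5. The same-rhythm model gives both genotypes a single curve, so their equal peak hours and amplitudes are set by the model. The authors also weighed equal against different mean levels. Where equal means had the larger weight, a single fitted mean is listed for both genotypes. A fold amplitude is peak over trough of the fitted curve, and a height is the same quantity in log2. Values of single animals and standard errors are not part of the table, so no spread between replicates can be given, the depth behind each value is unknown, and a weight is not a p-value. Levels are log2 values with no stated division by transcript length, so members are compared within a gene and not with each other. Between genes the level serves only as a rough lower limit for a background set.

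The keratinocyte genes Krt14 (16.54 in both genotypes), Krt5 (17.73 in EpiKO, 17.82 in WT) and Krt10 (17.48 and 17.76) had mean levels (log2) far above the lowest of the authors' deposited table. Because the WT libraries lie outside the series, genotype cannot be told apart from any difference in how the libraries were made, aligned or counted. By more than 8 (log2), 262 genes were lower in EpiKO and 12 higher.

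Promoter sequences are shown for 4 members, to give the letters around the start sites of genes with contrasting patterns. Psme3 had the largest weight for a shared rhythm, Psma4 is the other shared-rhythm member with an E-box, Psmb5 had the largest shared amplitude, and Psmb8 is the immune counterpart of Psmb5 with a rhythm assigned in WT only. They were chosen after their values and motifs had been seen. Each runs 5′ to 3′ from 250 bases before to 50 after the start site in RefSeq (GRCm38.p6), with motif matches in capitals, and the gene's strand is given in brackets. The motifs searched on both strands were CACGTG (the E-box bound by BMAL1 with CLOCK), CCAAT (bound by NF-Y, reverse strand ATTGG), TGACNNNGC (bound by NFE2L1 or NFE2L2 with small MAF proteins), TTCNNNGAA (the gamma-activated site bound by STAT factors), TTATGNAA (the D-box), the interferon-stimulated element bound by IRF factors and the heat shock element.
Psme3, chr11:101315963-101316262 (+): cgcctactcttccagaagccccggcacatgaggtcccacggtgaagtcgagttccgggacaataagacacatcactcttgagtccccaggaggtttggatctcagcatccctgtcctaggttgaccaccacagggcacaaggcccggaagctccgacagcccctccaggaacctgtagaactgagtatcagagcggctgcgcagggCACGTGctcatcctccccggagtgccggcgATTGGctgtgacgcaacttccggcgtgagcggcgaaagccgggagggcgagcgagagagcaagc
Psma4, chr9:54950609-54950908 (+): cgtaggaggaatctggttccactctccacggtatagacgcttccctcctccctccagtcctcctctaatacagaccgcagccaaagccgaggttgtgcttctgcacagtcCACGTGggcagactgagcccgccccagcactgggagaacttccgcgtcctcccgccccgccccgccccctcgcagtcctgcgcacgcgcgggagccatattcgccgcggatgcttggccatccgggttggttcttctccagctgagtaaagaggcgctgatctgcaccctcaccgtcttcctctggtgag
Psmb5, chr14:54617946-54618245 (-): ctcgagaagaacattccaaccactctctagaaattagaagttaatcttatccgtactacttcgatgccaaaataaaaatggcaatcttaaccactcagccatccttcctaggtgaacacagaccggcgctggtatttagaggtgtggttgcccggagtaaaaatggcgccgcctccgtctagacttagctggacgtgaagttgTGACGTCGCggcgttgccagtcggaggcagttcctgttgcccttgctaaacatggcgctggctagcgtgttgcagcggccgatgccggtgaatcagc
Psmb8, chr17:34197945-34198244 (+): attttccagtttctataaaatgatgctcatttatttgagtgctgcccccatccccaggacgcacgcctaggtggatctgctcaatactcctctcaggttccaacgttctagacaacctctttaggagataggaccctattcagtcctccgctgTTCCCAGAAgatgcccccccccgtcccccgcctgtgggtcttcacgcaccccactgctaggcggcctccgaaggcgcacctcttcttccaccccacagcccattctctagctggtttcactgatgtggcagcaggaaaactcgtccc
In these windows the capitals mark an E-box and a CCAAT box in Psme3, an E-box in Psma4, a TGACNNNGC match in Psmb5 and a TTCNNNGAA match in Psmb8. Of the 49 genes 41 had a promoter in the RefSeq table. The E-box was found in 4 of the 41 (Psma4, Psme3, Psmb10 and Psmd9), or 9.76%, against 7.15% of all 32851 promoter windows of that length. TGACNNNGC was found in 6 of the 41 (14.6%, against 12.4% of all windows), CCAAT in 15 (36.6% against 37.4%), the interferon-stimulated element in 5 (12.2% against 3.44%) and TTCNNNGAA in 3 (7.32% against 8.30%). The 5 genes with the interferon-stimulated element were Psmb3, Psmd4, Psmd9, Psme1 and Psmg4. It was not found in the windows of Psmb8, Psmb9 or Psmb10. No D-box and no heat shock element was found in the members' windows, and 3.38% and 0.603% of all windows held them. A gene with several start sites counts once among the members and once per site among all windows. A match is a run of letters and not evidence of binding.

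Of the 31 constitutive core and regulatory subunits, 8 followed a low daily curve shared by both genotypes, with a peak late in the dark phase. Over the 49 genes the fit gave 11 a rhythm common to both genotypes (16.7% of all genes), 22 no rhythm (56.7% of all genes), 4 a rhythm in WT only (8.41%), 2 a rhythm in EpiKO only (4.31%) and 0 different rhythms (2.65%). The other 10 had no weight of at least 0.5, as was so for 1998 of all 17721 genes, and their largest weights ran from 0.361 to 0.488. The shared-rhythm share was 22.4% of members, and 25.8% of the 31 constitutive core and regulatory subunits (8 genes). Among the 5635 genes of the table with a mean level at or above that of the lowest of those 31 subunits, it was 26.1%, in a set with no upper limit of level that reaches 17.82 in WT (log2). The share of proteasome genes with a shared rhythm was thus near that of genes above this limit. Of those 5635 genes 38.9% had no rhythm, 12.7% a rhythm in WT only and 4.67% one in EpiKO only. The same classes held 44.9%, 8.16% and 4.08% of the members.

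**Figure D1:**
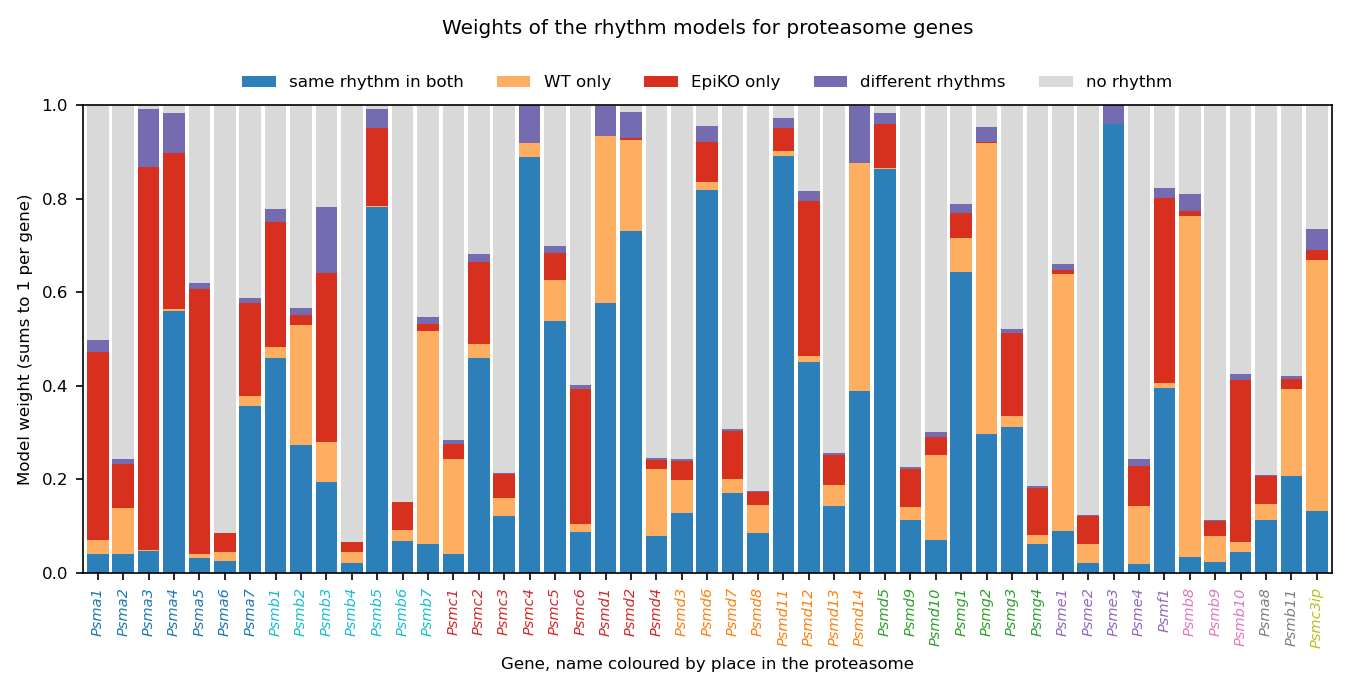
Weights (vertical axis, summing to 1 per gene) that the authors' fit gave to the 5 rhythm models for each of the 49 genes (horizontal axis). Names are coloured blue for the alpha ring, cyan for the beta ring, red for the base, orange for the lid, green for assembly factors, purple for activators and the inhibitor, pink for the immunoproteasome, grey for tissue-restricted core subunits and olive for Psmc3ip. The shared-rhythm weight is largest in Psme3, at 0.959, and WT-only weight leads in Psmb8, at 0.731.

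The 11 shared-rhythm members were Psma4 of the alpha ring, Psmb5 of the beta ring, Psmc4, Psmc5, Psmd1 and Psmd2 of the base, Psmd6 and Psmd11 of the lid, the assembly factors Psmd5 and Psmg1, and the activator Psme3. All 11 peaked between ZT17.8 and ZT21.8, with a circular mean of ZT19.6, in the authors' deposited table. Of all shared-rhythm genes in the table, 36.9% peaked between ZT16 and ZT22, and 49.8% in the dark phase. The hours from ZT16 to ZT22 enclose the range of the 11 peaks, so these shares are a description and not a test. Among shared-rhythm genes at the level of the constitutive subunits or above, 26.3% peaked between ZT16 and ZT22. Fold amplitudes of the 11 ran from 1.10 to 1.21 with a median of 1.13, against a median of 1.24 over all shared-rhythm genes and 1.19 over those at the level of the constitutive subunits or above.

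**Figure D2:**
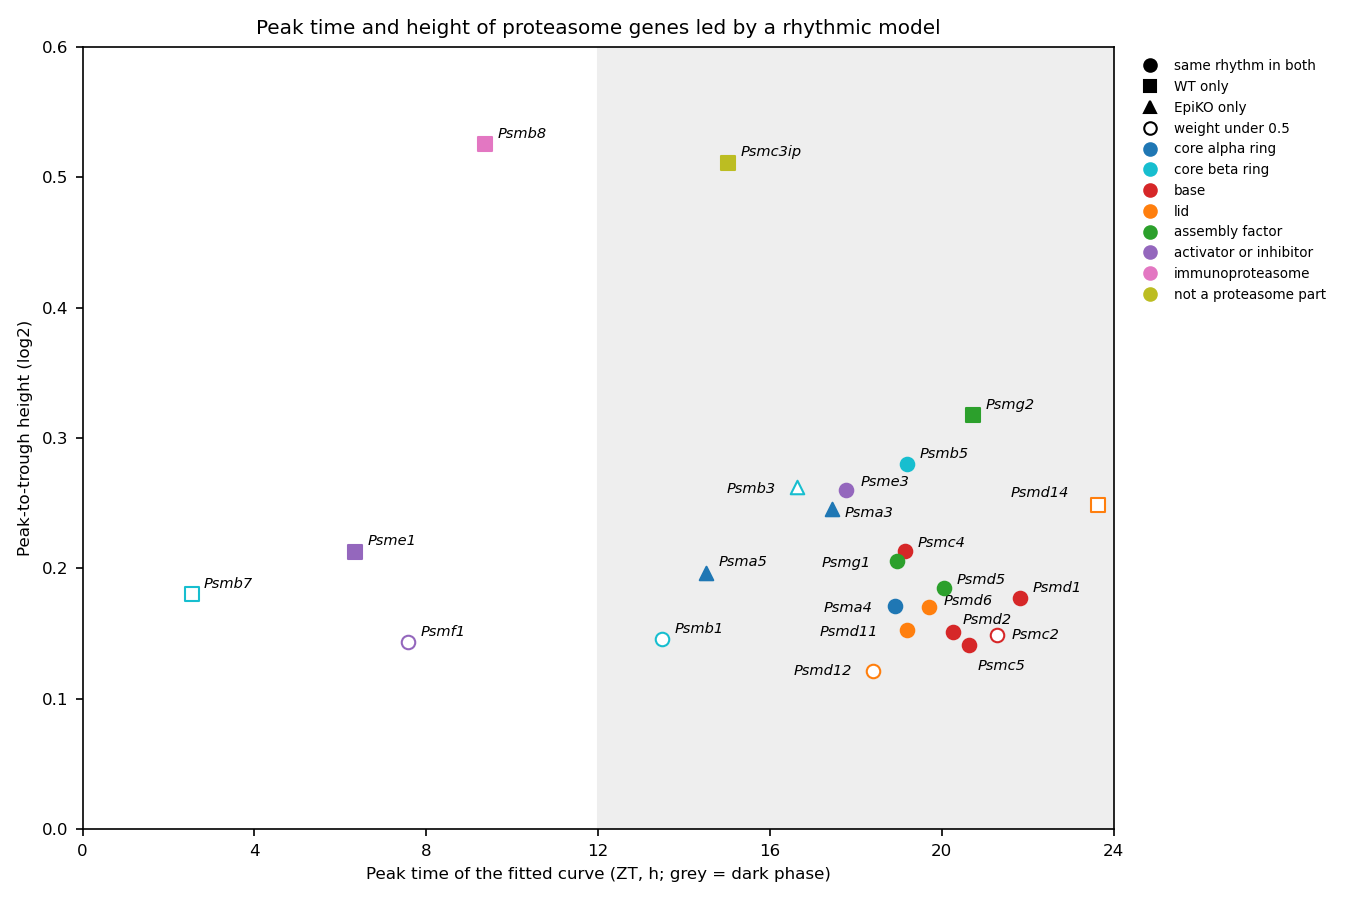
Peak time (horizontal axis, ZT in h, dark phase in grey) and peak-to-trough height in log2 (vertical axis) of the 24 genes whose largest weight was for a rhythmic model. Filled symbols have a weight of at least 0.5, and the 11 filled circles, with 1 curve for both genotypes, sit between ZT17.8 and ZT21.8 at heights of 0.14 to 0.28.

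In the alpha ring, which gates the core, Psma4 (chromosome 9) was the 1 of 7 constitutive subunits with a shared rhythm, 1.13-fold with a peak at ZT18.9 and a weight of 0.560 per the authors' deposited table. Psma3 was assigned a rhythm in EpiKO only, with a weight of 0.820, a peak at ZT17.5 and 1.19-fold from peak to trough in the authors' deposited table. Its fitted level in EpiKO was 9.91, 9.82, 9.84, 9.95, 10.05 and 10.03 (log2) at ZT0, ZT4, ZT8, ZT12, ZT16 and ZT20, computed from the authors' coefficients, against a flat 10.43 in WT. Psma5 was the second EpiKO-only member (weight 0.566, 1.15-fold, ZT14.5) in the authors' deposited table. Psma1, Psma2 and Psma6 were assigned no rhythm, with weights of 0.503, 0.756 and 0.914, and Psma7 was unassigned at 0.412, per the authors' deposited table. The peak of Psma3 in EpiKO was thus near those of the shared-rhythm members, and Psma1 had 0.404 of its weight on EpiKO only.

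In the beta ring the 3 catalytic subunits differed in their assignments. Psmb5, which carries the chymotrypsin-like activity (ENSMUSG00000022193, chr14:54614119-54618022, mm10), shared a rhythm of 1.21-fold with a peak at ZT19.2 and a weight of 0.783 per the authors' deposited table. Its fitted level was 8.63, 8.49, 8.45, 8.54, 8.68 and 8.72 in EpiKO and 9.77, 9.64, 9.59, 9.69, 9.82 and 9.87 in WT (log2) at ZT0 to ZT20 in steps of 4 h. The shape of the curve is the same in both by the model, and only the means differ. Psmb6, with the caspase-like activity, was assigned no rhythm (weight 0.848), and Psmb7, with the trypsin-like activity, was unassigned with 0.456 on WT only and 0.453 on no rhythm in the authors' deposited table. Of the structural subunits, Psmb4 was assigned no rhythm at 0.934, the largest such weight among the members, in the authors' deposited table. Psmb1, Psmb2 and Psmb3 had largest weights of 0.460, 0.434 and 0.361 in the authors' deposited table. Thus 4 of 7 beta subunits could be placed in no class (1998 of all 17721 genes), more than in any other group of the complex.

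The base, whose ATPases unfold the substrate, held 4 shared-rhythm members among 9 subunits. The ATPase subunit Psmc4 shared a rhythm of 1.16-fold peaking at ZT19.1 with a weight of 0.890, and the ATPase subunit Psmc5 one of 1.10-fold at ZT20.6 with a weight of 0.539, the smallest of the 11, in the authors' deposited table. The scaffold subunits Psmd2 (1.11-fold, ZT20.3, weight 0.731) and Psmd1 (1.13-fold, ZT21.8, weight 0.577) shared a rhythm as well in the authors' deposited table, and Psmd1 had the latest peak of the 4. The ATPase subunits Psmc1, Psmc3 and Psmc6 and the ubiquitin receptor Psmd4 were assigned no rhythm, with weights of 0.716, 0.786, 0.598 and 0.755 in the authors' deposited table. Psmc2 had 0.460 on the shared rhythm, with a fitted peak at ZT21.3, in the authors' deposited table. ATPases that sit in the same ring therefore fell in different classes.

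Of 8 lid subunits, Psmd11 (weight 0.892, 1.11-fold, ZT19.2) and Psmd6 (0.818, 1.13-fold, ZT19.7) shared a rhythm in the authors' deposited table. Both are structural subunits of the lid. Psmd12 had 0.452 on the shared rhythm with a peak at ZT18.4 in the authors' deposited table. Psmd14, the deubiquitinase that strips ubiquitin from the substrate, was unassigned, and its weight was split between WT only (0.488, with a peak at ZT23.6) and the shared rhythm (0.390) in the authors' deposited table. Psmd3, Psmd7, Psmd8 and Psmd13 were assigned no rhythm with weights from 0.692 to 0.826 in the authors' deposited table.

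Among the assembly factors, which hold partly built rings and are absent from the finished protease, the base chaperone Psmd5 (weight 0.863, 1.14-fold, ZT20.1) and the alpha ring chaperone Psmg1 (0.643, 1.15-fold, ZT19.0) shared a rhythm in the authors' deposited table. Psmg2, the partner of Psmg1 in a heterodimer, was assigned a rhythm in WT only (weight 0.622, 1.25-fold, ZT20.7), with 0.298 on the shared rhythm, in the authors' deposited table. Whether the partners differ in EpiKO was not tested, and their WT peaks were less than 2 h apart. Psmd9, Psmd10 and Psmg4 were assigned no rhythm and Psmg3 was unassigned.

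The activators bind the ends of the core in place of the regulatory particle. Psme3, the nuclear activator PA28 gamma (ENSMUSG00000078652, chr11:101316213-101323537, mm10), had the largest weight for a shared rhythm, 0.959, with 1.20-fold at ZT17.8 in the authors' deposited table. Its fitted level in EpiKO was 10.88, 10.77, 10.78, 10.90, 11.01 and 11.00 (log2) at ZT0 to ZT20, and 10.80, 10.70, 10.70, 10.82, 10.93 and 10.92 in WT. Among the sampled hours the shared curve was lowest at ZT4 and highest at ZT16, hours that the model makes equal in both genotypes. Psme4, the nuclear activator PA200, was assigned no rhythm (0.757), and Psmf1, the regulator PI31, was unassigned with 0.396 on a shared curve that peaked at ZT7.58, in the authors' deposited table. The interferon-inducible activator subunits Psme1 and Psme2 are given with the immunoproteasome.

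None of the 3 immunoproteasome genes was assigned a shared rhythm, which 25.8% of the constitutive subunits and 16.7% of all genes were. With 3 genes, a count of 0 does not set them apart from those shares. Psmb8, which takes the place of Psmb5 (ENSMUSG00000024338, chr17:34197721-34201454, mm10), was assigned a rhythm in WT only, with a weight of 0.731, 1.44-fold from peak to trough and a peak at ZT9.36, late in the light phase, in the authors' deposited table. Its fitted WT level was 9.52, 9.76, 9.97, 9.92, 9.68 and 9.47 (log2) at ZT0 to ZT20, against a flat 9.72 in EpiKO. That was the largest fold amplitude of the 49 genes. Psmb9, which takes the place of Psmb6, and Psmb10, which takes the place of Psmb7, were assigned no rhythm, with weights of 0.888 and 0.575, and 0.347 of the weight of Psmb10 was on EpiKO only, in the authors' deposited table. The activator subunit Psme1 was assigned a rhythm in WT only (weight 0.549, 1.16-fold, ZT6.33) and its partner Psme2 no rhythm (0.877) in the authors' deposited table. Psmb8 shares 14.7% of its exonic bases with the opposite-strand transcript Gm20496, and how strand was handled in counting is not stated in these sources, so the values of Psmb8 are less certain.

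Class I antigen presentation uses the peptides that the immunoproteasome makes. Of 10 genes of this pathway, 3 were assigned a rhythm in WT only (8.41% of all genes), 1 the same rhythm, 1 a rhythm in EpiKO only and 5 no rhythm. Among genes at the level of the constitutive subunits or above, 12.7% had a rhythm in WT only. The class I heavy chains H2-D1 (weight 0.726) and H2-K1 (0.524) peaked in WT at ZT9.37 and ZT9.25, 1.17-fold and 1.16-fold, per the authors' deposited table. The peptide transporter subunits Tap2, with a rhythm in WT only, and Tap1, with a shared one, peaked at ZT6.51 and ZT7.23 in the authors' deposited table. These 4 peaks and that of Psmb8 lay between ZT6 and ZT10, hours chosen after the values were seen, as did the peaks of 223 of all 1490 WT-only genes and of 755 (25.6%) of all 2954 shared-rhythm genes. Erap1, a peptidase that trims class I peptides, was the EpiKO-only gene, with a peak at ZT16.1 in the authors' deposited table. The transcriptional regulators Irf1 and Nlrc5 were assigned no rhythm.

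**Figure D3:**
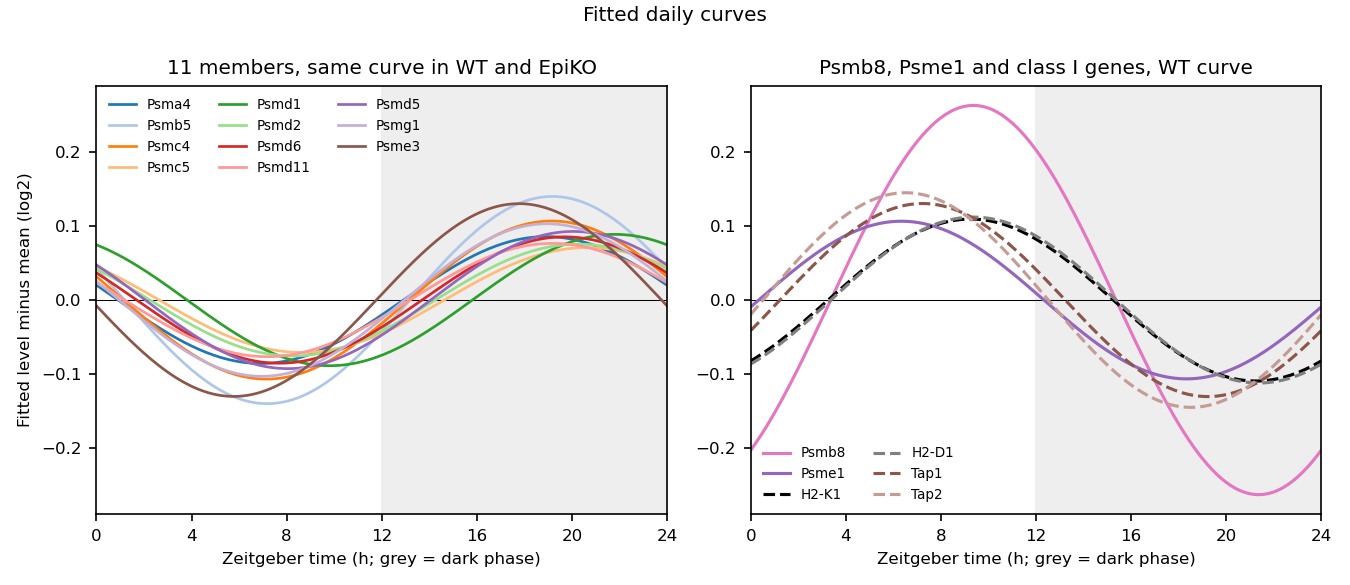
Fitted daily curves as level minus mean (log2, vertical axis) against zeitgeber time (h, horizontal axis, dark phase in grey). On the left, each line is the curve that 1 of the 11 shared-rhythm members has in both genotypes, with crests between ZT17.8 and ZT21.8. On the right are WT curves of Psmb8 and Psme1 (solid) and of 4 class I genes (dashed), with crests between ZT6.33 and ZT9.37.

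Among the remaining names, Psmc3ip is no proteasome part although its symbol fits the rule: it encodes a partner of recombinases in homologous recombination. It was assigned a rhythm in WT only (weight 0.537, 1.43-fold, ZT15.0) in the authors' deposited table, and 21.2% of its exonic bases lie opposite those of Mlx. Psma8, the alpha subunit of the testis, was listed at -1.23 (log2) in EpiKO and WT in the authors' deposited table, near the lowest values of the table (-2.45 in EpiKO and -2.49 in WT), and no rhythm was assigned.

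Most members had a higher mean level in EpiKO. By the authors' models of the mean, 31 of the 49 genes (63.3%) were higher in EpiKO with a weight of at least 0.5 (32.7% of all genes), 13 (26.5%) were lower (37.4% of all genes) and 5 had the same mean. The median difference over the 49 was 0.25 (log2, EpiKO minus WT) and 0 over all genes. Among genes at the level of the constitutive subunits or above, 43.4% were higher and 38.3% lower. Higher means were not particular to the proteasome. Of 36 Nduf genes of respiratory complex I, 66.7% were higher and 19.4% lower, with a median difference of 0.23 (log2). All 7 chaperonin genes were higher, with a median of 0.34. Of 82 ribosomal protein genes, 11.0% were higher and 84.1% lower, with a median of -1.41. The regulatory particle had 13 of 17 genes higher, with a median of 0.27 (log2), and the constitutive core 8 of 14.

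The largest increase was that of the ATPase subunit Psmc6, from 10.11 in WT to 11.04 in EpiKO, or 1.91-fold, per the authors' deposited table. Psmb9 went from 8.82 to 9.58 (1.70-fold), Psmg2 from 8.06 to 8.81 (1.68-fold) and Psmc2 from 9.95 to 10.61 (1.58-fold) per the authors' deposited table. Of the exonic bases of Psmb9, 5.79% lie opposite those of Tap1, which was itself higher in EpiKO by 0.19 (log2). The alpha subunits Psma1, Psma2 and Psma6 were higher by 0.57, 0.51 and 0.53 (log2) in the authors' deposited table. Psmb10 was higher by 0.25 and Psmb8 had the same mean of 9.72 (log2) in both in the authors' deposited table. In bulk tissue, more RNA per cell and more cells of a type cannot be told apart. Most of the listed markers of immune cells, which use the immunoproteasome heavily, were higher in EpiKO as well, as were 32.7% of all genes. Of 6 Langerhans cell markers 5 were higher and 0 lower, and their summed level was 12.35 in EpiKO and 11.70 in WT (log2). Of 6 T lymphocyte markers 4 were higher and 0 lower, with summed levels of 11.60 and 10.60 (log2). Thy1 (11.25 in EpiKO, 10.16 in WT) made up most of that sum, and the T cell genes Cd3d and Cd3e had the same mean in both. The defining markers Cd207 (7.28 in EpiKO, 5.80 in WT) and Cd3e (6.64 in both) were well above the lowest levels of the authors' deposited table. Fibroblast markers (3 of 5 higher, summed level 9.76 in EpiKO and 9.45 in WT) and endothelial markers (3 of 3 higher, 3.80 and 3.08) were higher in EpiKO too, although the endothelial genes Cdh5 (0.56 and -1.77) and Kdr (0.77 and -0.62) had low levels in the authors' deposited table. Other lists were lower in EpiKO. Of 5 melanocyte markers 0 were higher and 2 lower (summed level 8.48 in EpiKO and 9.61 in WT), of 3 muscle markers 0 were higher and 1 lower (2.78 and 9.90), and of 5 keratinocyte markers 0 were higher and 3 lower (19.19 and 19.34). The melanocyte sum fell mostly with Tyr (3.60 in EpiKO, 8.65 in WT), while Dct, Tyrp1 and Mlana had the same mean in both. The muscle sum fell with Acta1 (2.21 and 9.90), while Ckm (0.68 in both) and Des (-0.68 in both) had low levels. Of 4 sebocyte markers 2 were higher and 1 lower (14.01 and 14.05). The part of immune cells in the levels of Psmb9 and Psmb10 was not tested.

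**Figure D4:**
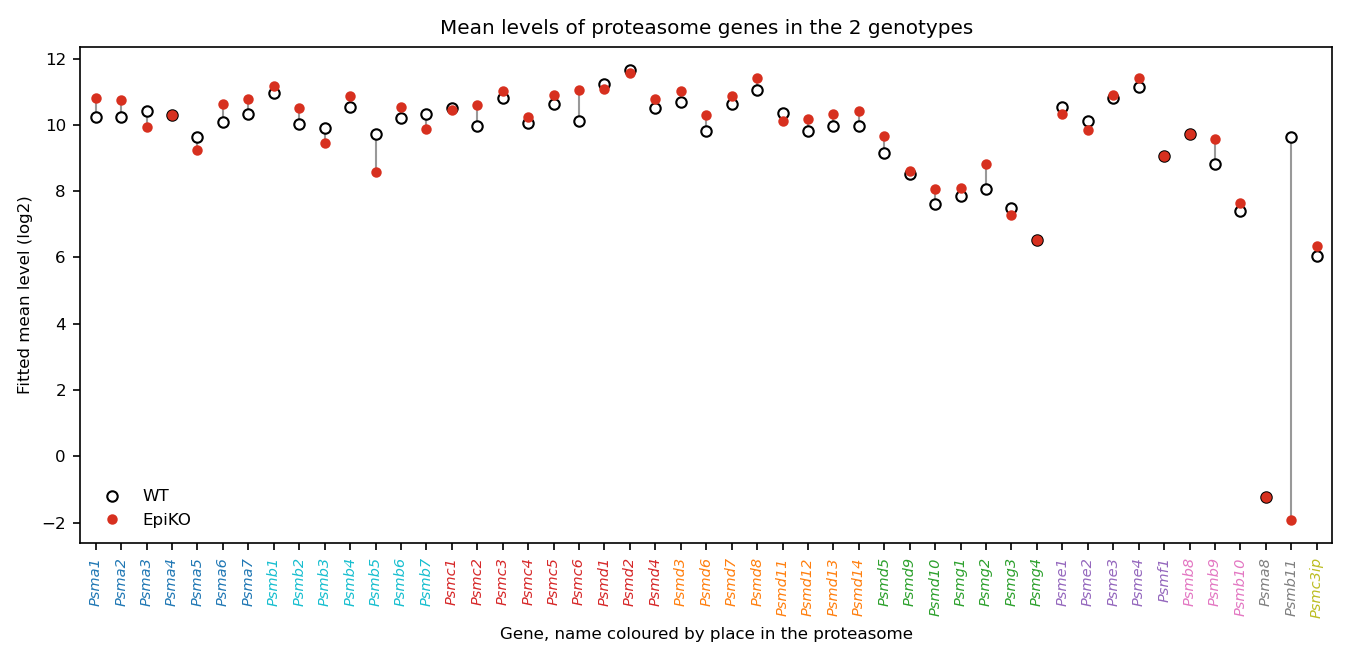
Fitted mean level (log2, vertical axis) of the 49 genes (horizontal axis, names coloured as in the plot of model weights) in WT (open) and EpiKO (red), joined by a line. Pairs are to be compared within a gene. Psmb11 stands apart, at 9.62 in WT and -1.93 in EpiKO, and Psmb5 is the constitutive subunit with the largest decrease, 9.73 in WT and 8.58 in EpiKO.

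Members with a lower mean in EpiKO were mostly those that share 5% or more of their sequence with other genes. Many proteasome genes have processed pseudogenes, so the share of 51-base windows of each member's transcripts that also occur in another gene's transcripts was counted in GENCODE M21 (mm10). Matches on either strand were counted, so the share also takes in overlap with genes on the opposite strand. Of the 13 genes with a lower mean, 12 had 5% or more of their windows in another gene, as did 3 of the 31 with a higher mean. The 12 were Psma3, Psma5, Psmb3, Psmb5, Psmb7, Psmc1, Psmd1, Psmd2, Psmd11, Psme1, Psme2 and Psmg3. The 3 were Psmd9, Psmd13 and Psmc3ip. Their exonic bases lay opposite those of Gm26745 (25.5%), Sirt3 (10.1%) and Mlx (21.2%), in that order. Of the 12, Psma5, Psmb7, Psmd1 and Psme1 had such overlap too, from 0.634% in Psme1 to 11.8% in Psmb7. Over the 17 genes with 5% or more shared windows the median difference was -0.20 (log2), and over the 32 others it was 0.34, where 28 were higher, 3 had the same mean and Psmb11 was the 1 lower gene.

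Psmb5 had the largest share, with 53.2% of its windows found in the processed pseudogenes Gm3375 and Psmb5-ps or in Mir686, and its mean went from 9.73 in WT to 8.58 in EpiKO, 2.21-fold lower, in the authors' deposited table. Psma5 had 49.4% shared windows and a difference of -0.37 (log2), and Psme2 had 28.0% and -0.28, in the authors' deposited table. Psma3 (15.3%, -0.50), Psmb3 (17.5%, -0.47) and Psmb7 (9.20%, -0.47) were lower by similar amounts in the authors' deposited table. The overlap of Psmb7 was with the opposite strand of Nek6. Both EpiKO-only members, Psma3 and Psma5, and 3 of the 4 WT-only members (Psmb8, Psme1 and Psmc3ip) were among the 17 genes with 5% or more shared windows. Of the 11 shared-rhythm members, 5 were among those 17 genes (29.4% of them) and 6 among the 32 others (18.8%). The part of reads that fit several places in the differences between genotypes was not tested.

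**Figure D5:**
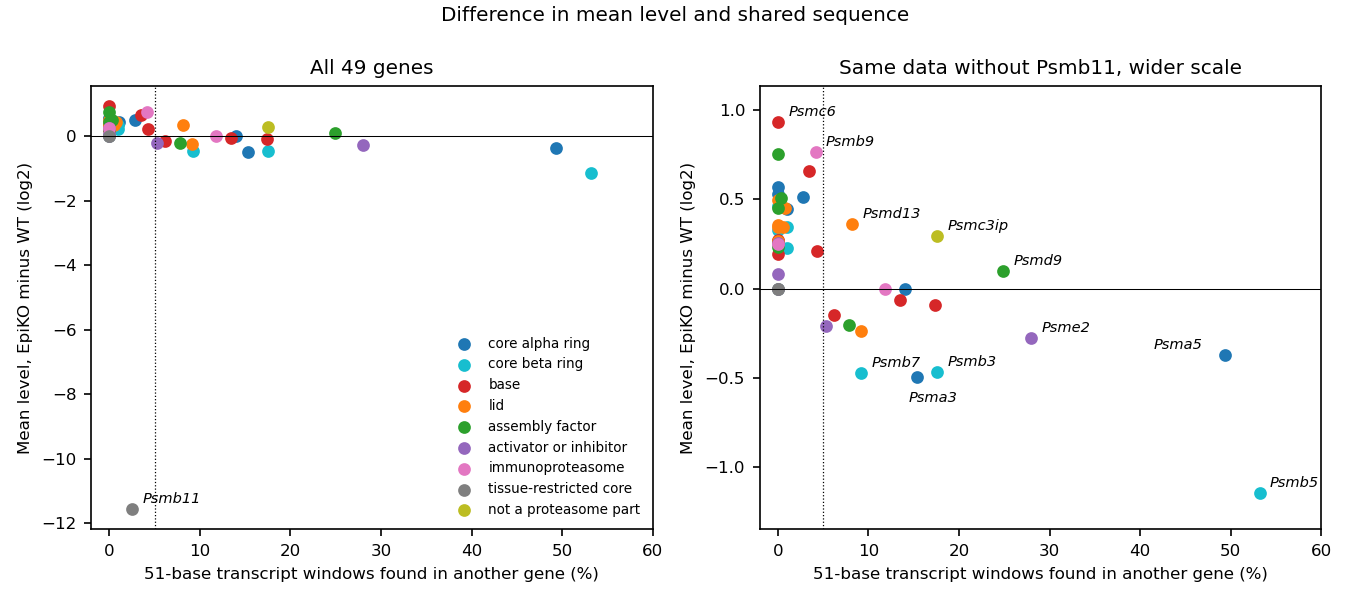
Difference in mean level (log2, EpiKO minus WT, vertical axis) against the percentage of 51-base transcript windows found in another gene (horizontal axis) for the 49 genes, coloured by place in the proteasome, with the limit of 5% dotted. The left panel shows all genes with Psmb11 at -11.55, and the right panel shows the other 48 on a wider scale, where the 12 genes below 0 all lie to the right of the limit.

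Psmb11 is the exception among the lower genes. It encodes the beta subunit of the thymus cortex and lies 3410 bases from Psmb5 on the opposite strand (ENSMUSG00000072423, chr14:54621433-54629556, mm10). It stood at 9.62 in WT and -1.93 in EpiKO (log2), a difference of -11.55, in the authors' deposited table, and 2.51% of its windows were shared. The EpiKO value is near the lowest of the table, so the size of the difference has little meaning as a fold. It is 1 of the 262 genes lower in EpiKO by more than 8, and whether it reflects transcription in WT epidermis was not tested.

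Partners of the proteasome outside the symbol rule gave a mixed picture. Of 13 such genes 12 were in the table, of which 2 shared a rhythm, 2 had one in WT only, 7 had none and 1 was unassigned. Uchl5, a deubiquitinase bound to the base, shared a rhythm of 1.23-fold at ZT17.8 with a weight of 0.930, and its docking receptor Adrm1 one of 1.10-fold at ZT16.7 with a weight of 0.537, per the authors' deposited table. Usp14, the other deubiquitinase of the base, was assigned a rhythm in WT only with a peak at ZT21.4 (1.13-fold), and the scaffold Ecpas one at ZT4.61 (1.13-fold), per the authors' deposited table. The core assembly factor Pomp and the small lid subunit Sem1 were assigned no rhythm. By mean level 8 of the 12 were higher in EpiKO and 3 lower, among them Adrm1 at -1.09 (log2) in the authors' deposited table.

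Of 14 regulators of proteasome genes, 5 shared a rhythm, 3 had one in WT only, 2 had none and 4 were unassigned. Nfe2l1, the main activator of proteasome genes, was assigned no rhythm (weight 0.753) and equal means, with a single fitted mean of 12.76 (log2) for EpiKO and WT, per the authors' deposited table. Ddi2, the protease that activates the NFE2L1 protein, had a rhythm in WT only, 1.22-fold at ZT6.39, and was higher in EpiKO by 1.83 (log2) in the authors' deposited table. Nfe2l2, a related activator in oxidative stress, was assigned a rhythm in WT only, 1.40-fold at ZT10.9, in the authors' deposited table. The NF-Y subunit Nfyb shared a rhythm that peaked at ZT22.8 with 1.22-fold, per the authors' deposited table. The small MAF gene Maff had the largest amplitude of the list, a shared 2.25-fold with a peak at ZT8.37 in the authors' deposited table.

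Of 11 genes that deliver substrates, 4 shared a rhythm, 1 had one in WT only, 4 had none and 2 were unassigned. The shuttle factors Ubqln4 (1.19-fold, ZT16.9) and Ubqln1 (1.14-fold, ZT20.4) shared rhythms with night peaks, and Ufd1 (1.12-fold, ZT9.61) and Faf2 (1.12-fold, ZT3.24) shared ones with peaks by day, in the authors' deposited table. The segregase gene Vcp was assigned a rhythm in WT only, 1.22-fold at ZT0.635, in the authors' deposited table. Of 6 genes for ubiquitin and its activating enzymes, Ubb shared a rhythm of 1.41-fold at ZT4.11 and Uba1 had one in WT only, 1.21-fold at ZT23.2, in the authors' deposited table.

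Shares and hours differed among large complexes. The shared-rhythm share was 64.6% of 82 ribosomal protein genes, with a mean peak at ZT11.9 and a median of 1.17-fold, and 5 of 7 chaperonin genes, with a mean peak at ZT17.7 and a median of 1.13-fold. The chaperonin genes with the largest shared amplitudes were Cct3 (1.26-fold, ZT20.2) and Cct8 (1.17-fold, ZT19.3) in the authors' deposited table. Of 36 Nduf genes of respiratory complex I, 19.4% shared a rhythm, with a mean peak at ZT20.7 and a median of 1.18-fold, close to the 22.4% and ZT19.6 of the proteasome genes. These shares are descriptions and the differences between them were not tested.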

How the data were processed

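RNA from epidermal cells of 24 EpiKO mice was sequenced as single reads from a stranded kit for polyadenylated RNA, per the labels' protocols. Trimming with Trimmomatic 0.36, the aligner HISAT2 2.2.1, the counter featureCounts 1.6.0, SAMtools 1.3.1, edgeR and the build mm10 are listed, per the submitters' processing notes. Their settings, the strand setting included, and the scaling of libraries are not stated there. The 1 table used is the authors' dryR comparison with WT, per the series design text. The weights in the table the authors deposited are a score between 0 and 1, given per gene to 5 rhythm models and 2 models of the mean, and the deposited mean levels are log2 values. The columns of the side that is not WT were taken as EpiKO. Recomputed from both deposited coefficients, the amplitude column matched the full peak-to-trough height within 1e-06. The models were read from which genotypes have an amplitude.

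Symbols from GENCODE M21 matched 17720 of 17721 identifiers. Psme2b, which the rule would take, was not analysed here. The members and lists were chosen with earlier results of these data known. Every member is named; full values went to members in a single-genotype class, the 8 largest shared amplitudes, the catalytic and immune core subunits and the 4 largest mean differences, with up to 4 rhythmic genes per pathway list, and other genes of these lists were named after their values were seen. Of the 49 genes 48 lay at or above the 0.25 quantile of level, with Psma8 below it. No test was run, since no values per library were at hand and genes are not replicates. Alternatives were other weight limits, a minimum height, a minimum mean difference, centring, a filter on low genes and leaving out genes with shared windows. Added after seeing the data was leaving out Psmc3ip, Psma8 and Psmb11. The scripts were tested on simulated data. Python 3.11.15, NumPy 2.4.6, pandas 2.3.3 and matplotlib 3.10.9 were used. Some results on genes of the pathway lists are not reported here.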

Additional observations from a re-analysis of the deposited data

How the results depend on the processing

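Of 58 recomputed values 43 stayed within 1.5 times the reported count or within the spread between members, and 15 did not. Several of the 43 had little room to move. The count of different rhythms was 0 in every setting, and the filter on low genes left 48 of the 49 genes. For the median mean difference, the spread between members included Psmb11 at -11.55 (log2), which made that limit wide. With a minimum weight of 0.8, 5 members had the same rhythm, 7 no rhythm, 0 a rhythm in WT only and 1 in EpiKO only. With a minimum height of 0.25 (log2), 2 shared a rhythm (Psmb5 and Psme3), 34 had none and 0 had one in EpiKO only. Over those 2 genes the median height was 0.27 (log2) and the mean peak lay 18.5 h after lights on. Without genes with 5% or more shared windows 6 shared a rhythm, 1 had one in WT only and 0 in EpiKO only, of 32 genes, and 1 gene had a lower mean in EpiKO. With a minimum difference of 0.5 (log2), 8 members had a higher and 2 a lower mean. In each case fewer genes could pass by construction, except that the minimum height moved low curves into the no-rhythm class and so raised its count. Centring moved nothing, since the median over all genes was 0. No paired analysis was possible because the table holds no values per library, and leaving out replicates was not run for the same reason. Depth is unknown, and curves as low as 1.10-fold rest on the authors' fit alone.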
